A study of Mus musculus with 4 samples.

Results

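S100a5 and Pcp4l1 are 2 of the 22399 genes counted in single cells of the mouse main olfactory epithelium, where odours are sensed in the nose. They were selected on their measured levels in these libraries, which differed strongly between immature and mature neurons and between neurons that use different odorant receptors. Their levels by stage and by receptor are therefore given as descriptions without a test, and tests are kept for the difference between the sexes, which played no part in the choice. The members were followed in 36201 barcodes (droplet tags that stand for single cells), of which 20513 were Omp-positive neurons. A receptor could be assigned to 17617 of these, and 5848 neurons used 1 of the 65 receptors that had at least 10 assigned neurons in every library. The features table lists 1103 odorant receptors, and 956 were assigned to at least 1 neuron.

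Of the 4 libraries, 2 were female and 2 male, and all were made from wild-type C57BL/6J mice at 3 months of age. The tissue was dissociated with papain and RNA was captured by its 5′ end, per the labels' protocols. The labels do not say how many animals went into a library, so p-values measure no spread between animals. Those of the sex and the sex by stage tests measure the spread between libraries. Those of the receptor by sex test measure how far the sums of single receptors vary between libraries of one sex. Between 100725429 and 111577458 UMIs (unique molecular identifiers, each standing for 1 captured RNA molecule) were counted per library. The median depth of the barcodes kept lay between 8223 and 9034 UMIs, and any pair of libraries shared 136 to 172 barcode sequences (1.33% to 1.60%).

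S100a5 encodes a small EF-hand protein of the S100 family, which binds calcium, and in the mouse it is known chiefly from olfactory sensory neurons. Pcp4l1 encodes a short relative of the calmodulin-binding protein Pcp4 (PEP-19). Each mature olfactory sensory neuron transcribes 1 odorant receptor gene, signals through cAMP and calcium entry, and sends its axon to the olfactory bulb with axons of neurons that chose the same receptor. S100a5 has been used as a marker of activity in these neurons, because its RNA falls when odour input is blocked and rises with stimulation.

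S100a5 (ENSMUSG00000001023) lies on chromosome 3 at 90608523 to 90611780 on the plus strand of GRCm38, and Pcp4l1 (ENSMUSG00000038370) on chromosome 1 at 171173262 to 171196268 on the minus strand. The annotation lists both as protein coding. Because both members moved together across receptors, the 250 bases before each start are shown, from RefSeq on GRCm38.p6, at chr3:90608272-90608521 on the plus strand for S100a5 and chr1:171196269-171196518 on the minus strand for Pcp4l1. Capitals mark the CCAAT box, which lies on the opposite strand and so reads ATTGG here.
S100a5: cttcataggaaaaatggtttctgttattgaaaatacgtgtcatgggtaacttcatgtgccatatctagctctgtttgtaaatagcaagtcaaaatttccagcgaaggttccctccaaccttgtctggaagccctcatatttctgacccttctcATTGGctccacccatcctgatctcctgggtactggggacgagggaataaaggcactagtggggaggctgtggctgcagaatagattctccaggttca
Pcp4l1: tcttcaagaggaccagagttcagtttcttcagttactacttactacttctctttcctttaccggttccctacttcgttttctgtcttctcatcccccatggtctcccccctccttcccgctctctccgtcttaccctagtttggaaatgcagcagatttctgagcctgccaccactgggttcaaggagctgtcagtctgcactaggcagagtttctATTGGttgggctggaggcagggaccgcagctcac
The CCAAT box lay 97 to 93 bases before the start of S100a5 and 34 to 30 bases before that of Pcp4l1, and 33.8% of 32851 windows of this length in the RefSeq table held one on either strand. No match on either strand was found in these windows to the TATA box (TATAAA, in 12.4% of windows), the cAMP response element (TGACGTCA, in 1.55%), its core TGACG (17.8%), the homeodomain core TAATTA (4.84%) or the palindromic Olf-1/Ebf site (0.779%). The core TGACG is part of TGACGTCA.

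Stages were set by 2 genes, Omp, the marker of mature olfactory neurons, and Gap43, a growth cone protein of young neurons. A barcode was Omp-positive at 10 or more Omp UMIs per 10000 UMIs and at least 3 UMIs, and Gap43-positive at 5 or more per 10000 and at least 3 UMIs. This gave 19605 mature neurons (Omp-positive only), 908 transitional neurons (positive for both) and 2206 immature neurons (Gap43-positive only). Other mature markers followed the gates: Adcy3 stood at 1563 CPM (UMIs of the gene per 1000000 UMIs) in mature and 112.0 CPM in immature neurons, and Cnga2 at 968 and 182.3 CPM. The young-neuron genes Gng8 and Dpysl3 were at 905 and 1412 CPM in immature and at 12.0 and 30.6 CPM in mature neurons. Stmn2, from the same marker list, was at 2643 CPM in immature and still at 351 CPM in mature neurons. Hdac9, also listed, went the other way, at 75.7 CPM in immature and 155.3 CPM in mature neurons.

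Among mature neurons S100a5 stood at 12677 CPM (female 1), 11373 CPM (female 2), 17660 CPM (male 1) and 13675 CPM (male 2). Transitional neurons had 2194, 2272, 3440 and 2651 CPM, and immature neurons 179, 150, 271 and 201 CPM, in the same order of libraries. Every library of a later stage lay above every library of an earlier one. The mature level was 65.2 to 75.6 times the immature level in the 4 libraries, a log2 ratio of 6.13 ± 0.09 (SD, n = 4), and the transitional level was 12.2 to 15.1 times the immature level.

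The immature value of S100a5 was at the level of cells that should lack the gene. Immune barcodes, taken here as the class that should hold only free RNA of neuronal genes, had 326, 203, 477 and 386 CPM in the same order, and immature neurons lay below them in all 4 libraries, at 0.521 to 0.742 of the immune level. After each barcode was thinned to 4000 UMIs, 53.7% of immature neurons, 62.0% of immune barcodes and 96.7% of mature neurons held an S100a5 UMI. The median depths of these classes before thinning were 10684.5, 4935.5 and 7719 UMIs, and 185 immune and 4025 mature barcodes were too shallow to enter. Unthinned, the shares were 83.5%, 81.5% and 98.5%. The immature share was thus below the immune share after thinning and slightly above it before. By library, the thinned shares overlapped, at 44.8% to 69.2% of immature neurons and 53.6% to 75.4% of immune barcodes. The part of free RNA in the immature level was not tested.

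Pcp4l1 was at 2467, 2522, 2857 and 2679 CPM in mature neurons of female 1, female 2, male 1 and male 2. Transitional neurons had 406, 428, 472 and 471 CPM and immature neurons 215, 208, 208 and 226 CPM. The stages did not overlap in any library. Mature neurons held 11.5 to 13.7 times the immature level, a log2 ratio of 3.62 ± 0.11 (SD, n = 4), and transitional neurons 2.07 times on average.

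Unlike S100a5, Pcp4l1 was above the immune level outside the neurons. Sustentacular cells, the glia-like supporting cells of the epithelium, had 359, 385, 373 and 355 CPM, against 87.0, 55.7, 91.4 and 70.4 CPM in immune barcodes, 4.08 to 6.91 times as much. Microvillar cells stood at 328 to 519 CPM and neuronal progenitors at 200 to 243 CPM, while horizontal basal cells (16.7 to 97.4 CPM) and glia with fibroblasts (57.2 to 86.0 CPM) were near the immune range. In immune, basal and glial barcodes there were 0.217 to 0.262 Pcp4l1 UMIs per S100a5 UMI, close to the 0.194 of mature neurons, whereas the ratio was 1.57 ± 0.33 (SD, n = 4) in sustentacular cells and 1.66 ± 0.43 in progenitors. The part of free RNA in these levels was not tested. The S100a5 level itself was lower in sustentacular cells (192 to 308 CPM) than in immune barcodes in all 4 libraries. The median depth was 12661 UMIs in sustentacular cells and 4935.5 UMIs in immune barcodes, and its part was not tested.

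Immature neurons had 2.28 to 3.73 times the Pcp4l1 level of immune barcodes. Sustentacular RNA was present in them too: Cyp2g1, a sustentacular P450, stood at 1817 CPM in immature and 1614 CPM in mature neurons, against 13122 CPM in sustentacular cells and 97.6 CPM in immune barcodes, and Cbr2, which horizontal basal cells also express, at 1601, 1027, 10956 and 92.4 CPM. Immune markers were near 0 in neurons, with Ptprc at 1.03 CPM in immature and 0.554 CPM in mature neurons. Between 179 and 219 immature barcodes per library also passed the gate of another class, as did 1192 to 1461 mature barcodes. The part of this RNA in the immature Pcp4l1 level was not tested.

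**Figure D1:**
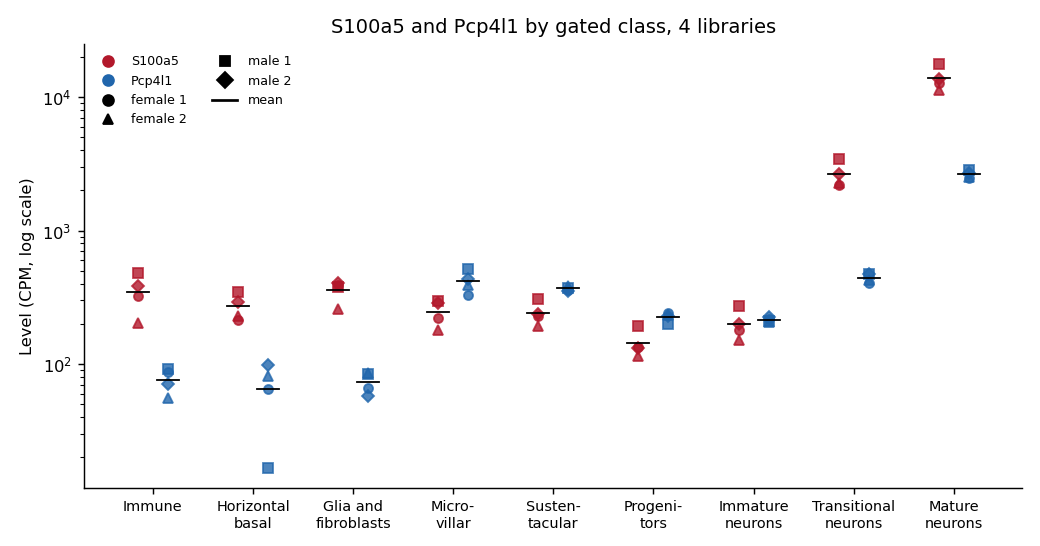
Level of S100a5 and Pcp4l1 (CPM, log axis) in 9 gated classes, with 1 symbol per library and a bar at the mean. S100a5 in immature neurons lies below that in immune barcodes in every library, while Pcp4l1 is higher in sustentacular and microvillar cells than in immune barcodes.

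Both members differed more than Omp between transitional and mature neurons. Omp was 2.37 times as high in mature neurons, while S100a5 was 5.27 times and Pcp4l1 5.93 times as high. From immature to transitional neurons Omp went from 235 to 3466 CPM, while S100a5 was 13.3 times and Pcp4l1 2.07 times as high on average. Omp itself set these gates, so the comparison was repeated at matched Omp. At 40 to 80 Omp UMIs per 10000, Gap43-positive neurons (292) had 4553 ± 843 CPM of S100a5 (SD, n = 4) and Gap43-negative neurons (5380) had 12891 ± 3450 CPM, with ranges of 3551 to 5400 and 10541 to 17997 CPM that did not overlap. Pcp4l1 in the same neurons was at 596 ± 68.8 CPM and 2429 ± 307 CPM, again without overlap. In the bin from 20 to 40, S100a5 was 1019 to 2919 CPM and 3923 to 5869 CPM, also apart, but from 10 to 20 the ranges overlapped, at 480.6 to 1688 and 1145 to 3164 CPM. Pcp4l1 was apart in both bins, at 297 to 506 against 1036 to 1214 CPM and at 230.9 to 371 against 583 to 842 CPM. Median depths in these 2 bins were 13449 and 13239.5 UMIs for Gap43-positive and 3262 and 3144 UMIs for Gap43-negative neurons. At 40 to 80, the median depth was 12493 UMIs in Gap43-positive and 6890 UMIs in Gap43-negative neurons. Omp in that bin was 5660 CPM in Gap43-positive and 6400 CPM in Gap43-negative neurons. The part of depth in these differences was not tested, and the share of all genes whose ranges are apart was not counted. The receptors used by Gap43-positive and Gap43-negative neurons were not matched, and their part in these differences was not tested.

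Within Gap43-positive neurons, S100a5 went from 188 CPM below 5 Omp UMIs per 10000 to 274, 1065, 2192 and 4553 CPM in the bins that begin at 5, 10, 20 and 40. Pcp4l1 went from 213 CPM to 223, 301, 421 and 596 CPM over the same bins. Between 10 and 20 Omp UMIs per 10000, S100a5 (480.6 to 1688 CPM in the 4 libraries) was for the first time above the range of immune barcodes, and Pcp4l1 stood at 230.9 to 371 CPM, just above the 200.6 to 221 CPM of the lowest bin. In single transitional neurons the level was uneven: at 4000 UMIs, 60.6% had at most 2 S100a5 UMIs while the upper 5% had 57.3 or more, against a median of 42 in mature neurons. For Pcp4l1 52.1% of transitional neurons had 0 UMIs, and the median in mature neurons was 8.

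**Figure D2:**
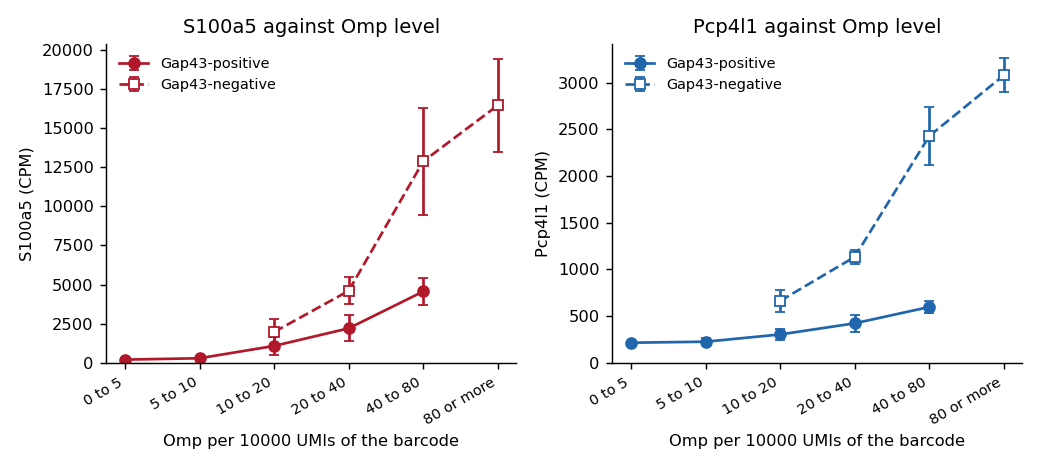
Level of S100a5 (left) and Pcp4l1 (right), in CPM as mean ± SD of 4 libraries, by the Omp content of the barcode, for Gap43-positive (filled) and Gap43-negative (open) neurons. At 40 to 80 Omp UMIs per 10000 the Gap43-negative neurons hold 12891 CPM of S100a5 and 2429 CPM of Pcp4l1, the Gap43-positive ones 4553 and 596 CPM.

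Shallow neurons held less of both members. The 4025 mature barcodes (20.5%) with fewer than 4000 UMIs had 4589 ± 640 CPM of S100a5 and 1449 ± 140 CPM of Pcp4l1 (SD, n = 4), against 14467 ± 2860 and 2710 ± 187 CPM in deeper ones. Omp was lower as well, at 4854 against 8437 CPM. The part of depth in these levels was not tested.

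Across the 65 receptors, S100a5 ran from 439 CPM in neurons of Olfr1507 to 34932 CPM in those of Olfr711, a 79.6-fold range around a median of 12436 CPM. The 5 receptors with the highest mean were Olfr711, Olfr190, Olfr455, Olfr720 and Olfr1346, and the 5 with the lowest were Olfr1507, Olfr195, Olfr728, Olfr1213 and Olfr1110. Pcp4l1 ran over a similar range, 85.9-fold, from 85.6 CPM in Olfr1507 to 7354 CPM in Olfr711, with a median of 2121 CPM. Without male 1, which was high in Olfr1507, the ranges were 126-fold for S100a5 and 106.4-fold for Pcp4l1. The highest receptors of Pcp4l1 were Olfr711, Olfr190, Olfr211, Olfr455 and Olfr1346, and the lowest Olfr1507, Olfr195, Olfr330, Olfr728 and Olfr1213.

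The order was shared between libraries. Over the 65 receptors, S100a5 levels of any pair of libraries had a Pearson r of 0.918 to 0.982 and Pcp4l1 levels one of 0.936 to 0.970, as log2 CPM. Neighbours in the order were not separable: of 64 neighbouring pairs, 0 in S100a5 and 4 in Pcp4l1 were further apart than their pooled SD over libraries, and in all 64 pairs of either gene the ranges of the libraries overlapped. By mean log2 CPM, the largest step in S100a5 was between Olfr281 (11.29) and Olfr1178 (10.29), with 6 receptors below it. For 5 receptors S100a5, and for 7 Pcp4l1, was under 0.1 times the median, and 45 receptors lay within 2-fold of it for S100a5.

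In Olfr711 neurons (53 cells), S100a5 was at 32023, 33986, 44092 and 29628 CPM and Pcp4l1 at 6624, 7943, 9114 and 5736 CPM in female 1, female 2, male 1 and male 2. Neurons of Olfr1507 (235 cells) had 229, 248, 998 and 282 CPM of S100a5 and 58.9, 60.5, 151.7 and 71.4 CPM of Pcp4l1. Male 1 was high in Olfr1507 for both genes, and 1 of its 54 neurons carried 54.6% of the S100a5 UMIs, without which its level was 469 CPM, beside 477 CPM in immune barcodes of that library. Set against immune barcodes of the same library, S100a5 in Olfr1507 neurons was at 0.703, 1.22, 2.09 and 0.730 and Pcp4l1 at 0.677, 1.09, 1.66 and 1.01 times their level. The median depth was 9612 UMIs in Olfr1507 neurons and 4935.5 UMIs in immune barcodes, and its part in these ratios was not tested. Immature neurons held 179, 150, 271 and 201 CPM of S100a5, below Olfr1507 neurons in all 4 libraries. Omp in Olfr1507 neurons was at 8670 CPM.

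The other low receptors stood slightly higher. Olfr1110 had 743, 699, 1136 and 1089 CPM of S100a5, 2.28 to 3.45 times the immune level of the same library. Olfr1178 had 656, 777, 5652 and 818 CPM, and 1 neuron of male 1 held 76.8% of the S100a5 UMIs of its 13 cells, without which male 1 was at 1470 CPM. Olfr728 had 248, 250, 1428 and 747 CPM, and male 1 was at 1080 CPM without its highest neuron.

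**Figure D3:**
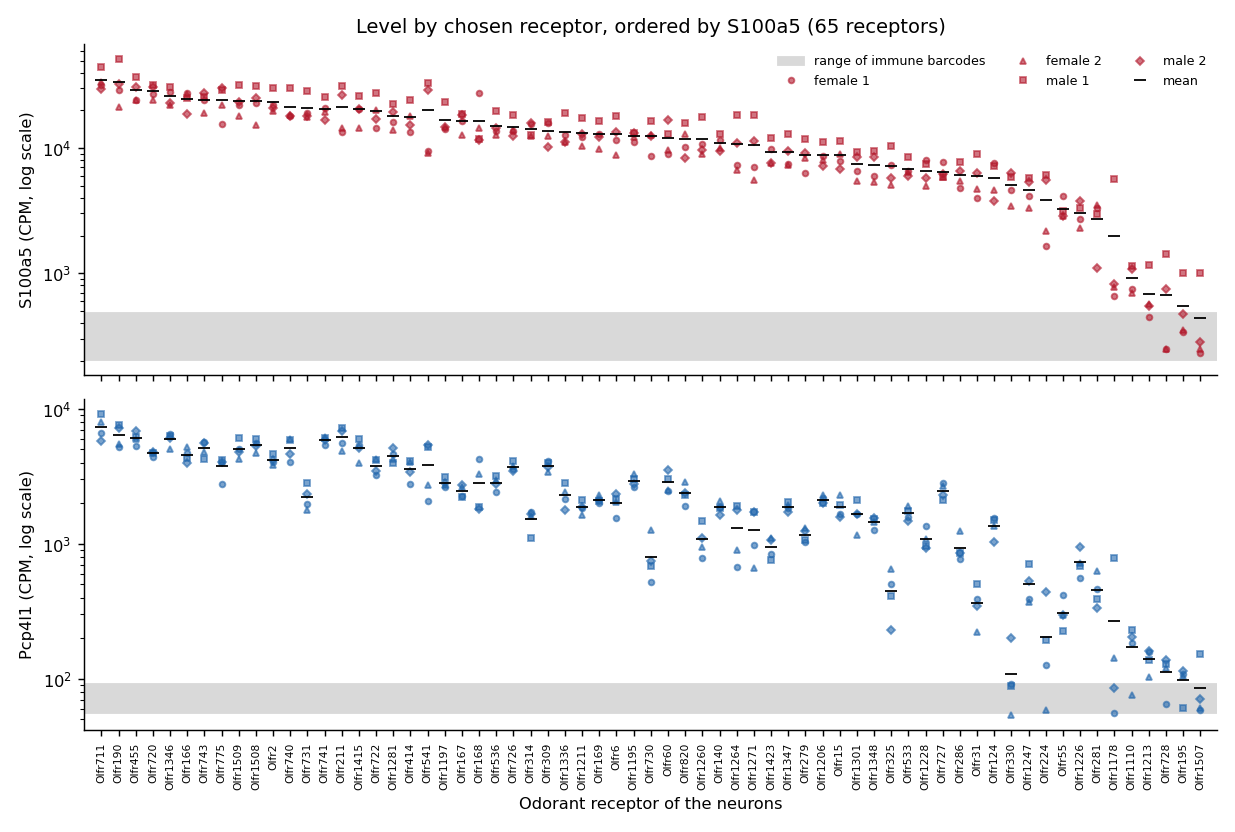
Level (CPM, log axis) of S100a5 (top) and Pcp4l1 (bottom) in neurons of 65 receptors, ordered by S100a5, with 1 symbol per library and a dash at the mean; the grey band is the range of immune barcodes. In S100a5, 3 libraries each of Olfr1507 and Olfr195 and 2 of Olfr728 fall in the band, and Olfr330 lies near it in Pcp4l1 and at 3446 CPM or more in S100a5.

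Some neighbouring receptor genes differed widely. Olfr1507 (chromosome 14, 52488791 to 52495749, minus strand), Olfr1508 (52458829 to 52467495, minus strand) and Olfr1509 (52442990 to 52452574, plus strand) follow one another, yet S100a5 was at 439 CPM in the first and at 23752 ± 6686 and 23849 ± 5787 CPM (SD, n = 4) in the others, log2 differences of 5.97 and 5.99, while Olfr1508 and Olfr1509 differed by 0.02. On chromosome 16, Olfr190 (59067140 to 59078005, minus strand) had 33548 ± 12848 CPM and Olfr195 (59147046 to 59150777, plus strand) 543 ± 317 CPM. These loci were picked for their differences. Over all 124 pairs within 1 Mb, the median difference was 0.96 log2 for S100a5 and 1.11 for Pcp4l1, beside 1.11 and 1.48 for 1769 pairs on different chromosomes. For 187 pairs further apart on the same chromosome it was 0.91 and 1.16, so pairs within 1 Mb were not more alike than these in S100a5. Pairs share receptors, so these medians are descriptions.

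Outside the compared receptors, neurons of trace amine receptors (111 cells) had 9548, 11934, 21788 and 13966 CPM of S100a5 and 2219, 2407, 3605 and 2813 CPM of Pcp4l1. Neurons of the class I receptor cluster on chromosome 7 (1274 cells) had 17326 ± 2693 CPM of S100a5 and 3318 ± 190 CPM of Pcp4l1, against 12934 ± 2666 and 2462 ± 186 CPM (SD, n = 4) in neurons of all other odorant receptors. Omp-positive neurons with no receptor at 3 UMIs (1441 cells) still had 13982 ± 3625 CPM of S100a5.

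The 2 members followed each other across receptors. To keep shared counting error out, S100a5 in the summed females was set against Pcp4l1 in the summed males and the reverse, over 65 receptors, as log2 CPM with a prior count of 2. Pearson r was 0.894 and 0.861 (Spearman rho 0.894 and 0.840), and 0.880 and 0.832 without the 2 receptors farthest from the median. Each gene against itself between the sexes gave 0.946 for S100a5 and 0.961 for Pcp4l1. The points share libraries, depth and the assignment of receptors. Of the 65 receptors, 28 lay above the median in both genes, 29 at or below it in both, and 4 in each mixed class.

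Some receptors departed from the common order. Olfr727 ranked 50 of 65 in S100a5 (7685, 5890, 5853 and 6204 CPM) and 27 in Pcp4l1 (2807, 2692, 2119 and 2312 CPM). Olfr726, nearby on chromosome 14, ranked 25 and 18, with 14604 ± 2585 and 3725 ± 274 CPM. In the other direction, Olfr730 ranked 33 in S100a5 (8685, 12736, 16490 and 12443 CPM) and 51 in Pcp4l1 (521, 1264, 686 and 742 CPM), and Olfr731 ranked 13 and 31. Olfr330 neurons had 4639, 3446, 5899 and 6277 CPM of S100a5 while Pcp4l1 was at 92.0, 53.7, 89.0 and 199 CPM, so that 3 libraries lay between 53.7 and 92.0 CPM and immune barcodes between 55.7 and 91.4 CPM.

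Levels of other kinds were less related to the members. Over the 65 receptors, the correlation of S100a5 and Pcp4l1 with the level of the chosen receptor itself was -0.09 and -0.16, with Omp 0.13 and 0.25, with the log2 number of neurons -0.19 and -0.08, and with the share of shallow neurons -0.15 and -0.14. The share of Gap43-positive neurons gave -0.49 and -0.55. With Gap43-negative neurons alone, which left 57 receptors, S100a5 and Pcp4l1 still had a mean cross-sex r of 0.884.

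Genes with the most similar pattern were named by the same cross-sex r, averaged over both directions, among 7089 genes at 20 CPM or more in both sexes. Beside Pcp4l1 (0.88), those most like S100a5 were Slc8a1, a sodium-calcium exchanger (0.85), Kcnmb3, an auxiliary subunit of calcium-activated potassium channels (0.84), Epha5, an ephrin receptor (0.80), and Tstd1 (0.79). Those most opposed were Ppp3ca, the catalytic subunit of the calcium-dependent phosphatase calcineurin (-0.79), B830017H08Rik (-0.76) and Efna5, an ephrin ligand (-0.72). For Pcp4l1 they were Kcnmb3 (0.88), S100a5 (0.88), Rgs7, a regulator of G protein signalling (0.87), Nfatc2, a transcription factor that calcineurin activates (0.83), and Gpr162 (0.82), against Entpd2, which breaks down extracellular ATP (-0.80), Sgpl1 (-0.77) and Dcdc2a (-0.75).

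Among 21 listed axon sorting and activity-linked genes, 16 were measured at this level. Of these, 4 had a likeness to S100a5 above 0.5 (Epha5 0.80, Lrrc3b 0.77, Kirrel2 0.75 and Sema7a 0.56) and 2 one below -0.5 (Efna5 -0.72 and Calb2 -0.68), with a median of -0.18. Over all genes 1.47% lay above 0.5 and 0.677% below -0.5, with a median of -0.01. Kirrel2 encodes an adhesion molecule of receptor-specific axons and Calb2 the calcium-binding protein calretinin. Kirrel3, a paralogue known for a complementary pattern, was at -0.44, and Nrp1 at 0.21. The list also had 4 genes above 0.5 and 2 below -0.5 for Pcp4l1, beside 1.95% and 1.09% of all genes.

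The next values are likeness to S100a5, for which 1.47% of all genes lay above 0.5 and 0.677% below -0.5. Of 9 measured calcium- and calmodulin-binding genes, 3 were above 0.5 (S100a6 0.56, Hpcal1 0.56 and S100a13 0.52) and 1 below -0.5 (Calb2). Of 17 transduction genes only Pde1c, a calcium- and calmodulin-dependent phosphodiesterase, passed 0.5 (0.52). The cyclase Adcy3 (0.03) and the channel subunits Cnga2 (-0.16) and Cnga4 (-0.26) lay between these limits. Of 9 immediate early genes none was above 0.5 and Jun was at -0.56, with Fos at -0.29 and Egr1 at -0.20. The 4 measured zone genes lay between -0.10 and 0.03. In likeness to Pcp4l1, the zone genes lay between -0.22 and 0.13. Of the transduction genes, Pde1c was at 0.66 and Rtp1 at -0.54 for Pcp4l1.

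Neurons of 1 receptor still differed from cell to cell. In 4906 neurons thinned to 4000 UMIs (942 were too shallow), 51.6 ± 3.06% of the variance of S100a5 beyond counting noise lay between receptors, and 70.7 ± 2.22% of that of Pcp4l1 (SD, n = 4 libraries). For Omp the share was 8.34 ± 2.13%. Within a receptor, the coefficient of variation beyond Poisson noise had a median of 0.616 over receptors for S100a5, 0.441 for Pcp4l1 and 0.295 for Omp. It was larger at receptors of low level, with an r of -0.78 for S100a5 and -0.72 for Pcp4l1 against the log2 mean count over 65 receptors.

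Receptors at the ends of the order hardly overlapped in single neurons. In Olfr711 the lowest of 48 neurons had 35 S100a5 UMIs, the median was 142.5 and the highest was 251. In Olfr1507 the median of 198 neurons was 1, and 1 neuron (0.505%) reached 20, while 63 of 66 Olfr1508 neurons did. Of 55 Olfr190 neurons 52 reached 20, and the median was 127, whereas no Olfr195 neuron was above 12. Olfr727 was broad, with a median of 22 and values from 0 to 151 in 140 neurons. Neurons at 0 also occurred among high receptors, such as 1 of 75 in Olfr455.

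**Figure D4:**
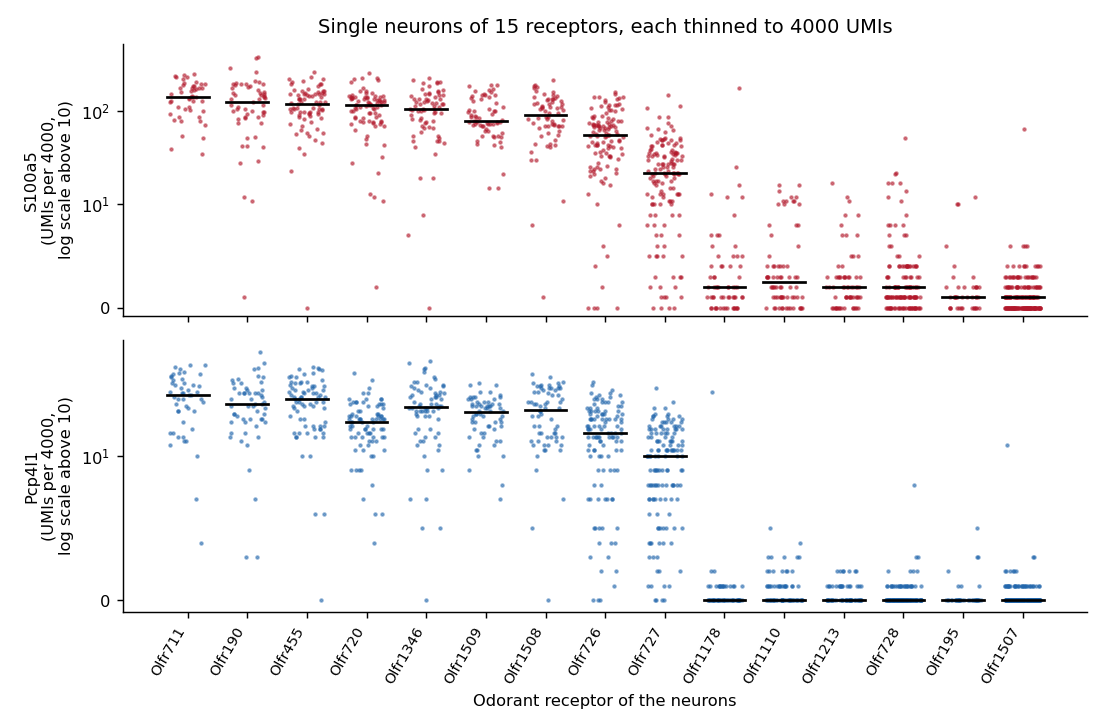
S100a5 (top) and Pcp4l1 (bottom) in single neurons of 15 receptors, as UMIs after thinning to 4000 UMIs (axis linear to 10 and logarithmic above), with the median as a bar. Nearly all neurons of Olfr711 lie above those of Olfr1507, whose median is 1 for S100a5, and 1 neuron each of Olfr1507 and Olfr1178 stands far above its receptor.

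Within a receptor the members also moved together. Deviations of single neurons from the mean of their receptor and library had an r of 0.52 ± 0.05 (SD, n = 4 libraries) between S100a5 and Pcp4l1, and it was above 0 in 64 of 65 receptors. The same deviations gave 0.35 for S100a5 with Omp and 0.28 for Pcp4l1 with Omp, above 0 in 63 and 56 of 65 receptors. A positive sign in nearly all receptors was thus not particular to this pair, and the share over all gene pairs was not measured. For S100a5 and Pcp4l1 the values were -0.04 and -0.01 with the chosen receptor's own UMIs, and -0.03 for both with the depth before thinning. Such correlations are across cells that share a library, and thinning leaves counting noise that lowers them.

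Classes of receptors also differed in transitional neurons, while immature neurons were not read by receptor. Receptors were ranked by the mature neurons of one sex, and the level was read in the libraries of the other sex. In transitional neurons S100a5 was 1237 ± 476 CPM for the 22 lowest receptors, 3140 ± 837 for the middle 22 and 8003 ± 3451 CPM for the 21 highest (SD, n = 4). In mature neurons the same classes held 4599 ± 926, 13743 ± 2951 and 23735 ± 4290 CPM. The lowest and the highest class did not overlap in transitional neurons, with 648 to 1731 against 3509 to 11427 CPM. The middle class, at 2215 to 4244 CPM, overlapped the highest over the libraries, though it was lower in each single library. These classes held 139, 96 and 51 transitional neurons, and the highest had 10 to 16 per library. Pcp4l1, by its own ranking, was in transitional neurons at 160 ± 26.3, 571 ± 110 and 1312 ± 296 CPM, over 126, 101 and 59 neurons, and its classes did not overlap.

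The sexes were then compared, with all genes in the fit. In mature neurons S100a5 was higher in males by 0.42 ± 0.14 on the log2 scale (SE) and Pcp4l1 by 0.18 ± 0.05. Both male libraries lay above both female ones, but the share of all genes that separate in this way was not counted. Neither member passed the test (adjusted p 0.967 and 0.859, edgeR quasi-likelihood test with Benjamini-Hochberg adjustment). The test called 1 of 14450 genes (0.00692%), the Y-linked Eif2s3y, which was higher in males. S100a5 in male 1 was the highest of the 4 libraries in 52 of 65 receptors, and also in immune and sustentacular barcodes, and without male 1 the difference in mature neurons was 0.22 ± 0.08 (adjusted p 1 by edgeR). DESeq2 gave an adjusted p of 0.0111 for Pcp4l1 and called 150 genes. In transitional neurons the differences were 0.48 ± 0.13 and 0.21 ± 0.07, neither passing (adjusted p 0.998 for both by edgeR, 0.161% of genes called). Without male 1 that of S100a5 was 0.29. With the gates at 0.5 times their level the values were 0.22 for S100a5 and 0.016 for Pcp4l1, with doubled gates 0.70 and 0.35, and with doublets kept that of Pcp4l1 was 0.13. The interaction of sex with stage was -0.06 ± 0.09 and -0.03 ± 0.06 (adjusted p 1 for both by edgeR, 0.0209% of genes called), and both signs turned with the gates at 0.5 times their level.

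The pattern over receptors did differ between the sexes. The interaction of receptor with sex passed the edgeR quasi-likelihood test for S100a5 (F = 3.77, adjusted p 5.49e-08) and Pcp4l1 (F = 2.79, adjusted p 0.000428), 2 of the 8 genes called among 9991 (0.0801%). By p they ranked 2 and 3, after Kirrel2 (F = 4.15), and Sema7a and Pcdh10 were called too. The other 3 were Hbb-bs, a globin of red blood cells, and Wfdc18 and Vmo1. A limma fit on log2 CPM, added after the data were seen, gave F = 3.70 (adjusted p 6.18e-08) and F = 2.27 (adjusted p 0.0351). The call for S100a5 was lost without female 1 (adjusted p 0.681). That for Pcp4l1 was lost without female 1 (0.314), without female 2 (0.206), without male 1 (0.287) and when barcodes under 4000 UMIs were left out (0.188). This test used 260 sums, each of 1 receptor in 1 library, with library as a term. Receptors of the same library thus counted as separate observations, and the small p-values do not stem from 4 independent libraries alone. With 2 libraries a sex, sex and whatever else the libraries of a sex share cannot be told apart.

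Males minus females, S100a5 ran from -0.91 (Olfr281) to 2.01 log2 (Olfr728) over the receptors, with a median of 0.37, and Pcp4l1 from -1.01 (Olfr168) to 1.64 (Olfr224), with a median of 0.10. The size exceeded 1 in 8 receptors for S100a5 and in 6 for Pcp4l1, and the receptors named next were picked for it. In Olfr541 neurons (58 cells) S100a5 was 9546 and 9185 CPM in female and 32812 and 29336 CPM in male libraries, and Pcp4l1 2065, 2714, 5185 and 5357 CPM. At 4000 UMIs the median S100a5 was 58 and 38 in female libraries and 149 and 121 in male ones, while median Omp was 36, 40, 38 and 41 UMIs.

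Olfr1264 (128 cells) had 7323 and 6646 CPM of S100a5 in females against 18414 and 10962 CPM in males, and 671 and 904 against 1907 and 1769 CPM of Pcp4l1. Olfr1271 (78 cells), also on chromosome 2, had 7091 and 5577 against 18536 and 11321 CPM of S100a5, and 979 and 660 against 1725 and 1734 CPM of Pcp4l1. Olfr224 (50 cells) had 1644 and 2175 against 6119 and 5559 CPM of S100a5, with median counts of 6, 7, 28.5 and 25 UMIs at 4000. Its Pcp4l1 was low, at 126 and 58.8 against 194.5 and 438 CPM, with medians of 0, 0, 0 and 1 UMI, and the libraries of one sex differed by 0.98 and -1.13 log2. The sexes did not overlap in any of these receptors in either gene, but the receptors were picked for that difference. Separation was not particular to them: in Olfr1348, S100a5 was at 5984 and 5367 CPM in females and 9536 and 8449 CPM in males. By mean log2 level, males were higher in 57 of the 65 receptors for S100a5 and in 41 for Pcp4l1. How many of the 65 receptors separate in this way was not counted, so the separation is a description. In the reverse direction, Olfr168 (45 cells) had 4236 and 3299 CPM of Pcp4l1 in females against 1878 and 1821 CPM in males. In Olfr1507 and Olfr1178 a single neuron of male 1 held over 50% of that library's S100a5 UMIs, as given above. Olfr728 was higher in both males (1428 and 747 CPM against 248 and 250 CPM of S100a5), at low median counts of 1 and 1 UMI in females and 2 and 3 in males. Over the 65 receptors the male minus female values of both genes had an r of 0.78, from the same neurons.

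**Figure D5:**
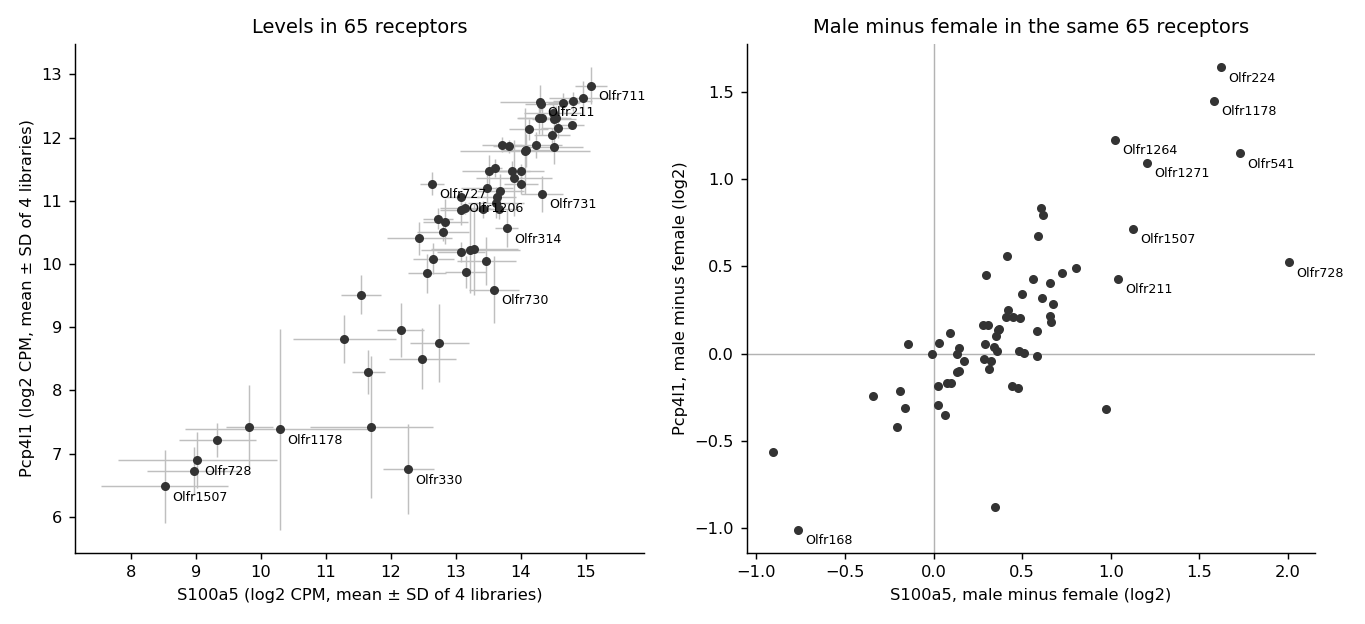
Left, mean level (log2 CPM ± SD of 4 libraries) of Pcp4l1 against S100a5 in 65 receptors. Right, the male minus female difference (log2) of Pcp4l1 against that of S100a5 in the same receptors, with those past 1 in either gene named. Olfr541, Olfr1264, Olfr1271, Olfr224 and Olfr1178 are over 1 log2 higher in males in both genes, and Olfr168 is lower in both. In Olfr1178, 1 neuron of male 1 held 76.8% of the S100a5 UMIs of that library's cells.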

How the data were processed

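Single cells of the main olfactory epithelium were measured in 4 libraries. The UMI counts per gene and barcode are as deposited by the authors. Per the file headers they came from Cell Ranger 6.0.2, while the submitters' processing notes name Cell Ranger 5.0.1 and the build mm10; the annotation and the rule for calling cells are not given in the sources used here. Barcodes with at least 500 genes and at most 10% mitochondrial UMIs were kept, and barcodes resembling simulated doublets were removed (841 to 929 per library), which left 8819 to 9291 barcodes. Neurons were gated on Omp and Gap43, and a receptor was assigned where the top receptor gene had at least 3 UMIs and 80% of all receptor UMIs. Counts were summed per library and class or receptor and given as CPM, or thinned to 4000 UMIs for comparisons between single cells.

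Sums were tested across libraries with edgeR 4.0.16 (quasi-likelihood, TMM, Benjamini-Hochberg over all genes at 0.05), with DESeq2 1.42.0 and limma 3.58.1 as alternatives. The receptor by sex fit used 1 common dispersion, estimated from every 40th gene. The scripts were tested on simulated data. The members and all gene lists were chosen with earlier results of these data known. Genes named for likeness were the 5 highest and 3 lowest for each member, and receptors the 5 highest and 5 lowest; other list genes and receptors were named after their values were seen. Free RNA was read from immune barcodes.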

Additional observations from a re-analysis of the deposited data

Results flagged for a closer look

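The interaction of receptor with sex, a test of the difference between the sexes in the pattern over receptors, passed for both genes (0.0801% of 9991 genes called by edgeR, p-values adjusted over all of them). For S100a5 F was 3.77 (adjusted p 5.49e-08), and males were higher in 57 of 65 receptors, with a median difference of 0.37 log2. For Pcp4l1 F was 2.79 (adjusted p 0.000428), and males were higher in 41 of 65 receptors, with a median difference of 0.10 log2. Over receptors the male minus female difference, taken between means of 2 libraries, had an SD of 0.51 for S100a5 and 0.48 for Pcp4l1. The difference between the 2 libraries of one sex had an SD of 0.31 (females) and 0.49 (males) for S100a5, and of 0.45 and 0.53 for Pcp4l1. Differences of single libraries carry more noise than differences of means, so the 2 kinds of SD are not like measures. Without female 1 the adjusted p was 0.681 for S100a5 and 0.314 for Pcp4l1.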

How the results depend on the processing

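Of 262 alternative values, 202 counted as unchanged. These kept their direction and their side of the threshold, or moved by less than the spread between libraries. A number of genes called counted as unchanged if it stayed within a fixed fold of the main number. The cause of the changes below was not tested. The log2 ratio of mature to immature neurons for S100a5 was 5.93 with both gates at double the level, 5.88 with doublets kept and 6.22 without barcodes under 4000 UMIs; for Pcp4l1 it was 3.88 and 3.44 under the first pair and 3.46 with the gates at 0.5 times their level. The SD of Pcp4l1 over receptors, 1.76 log2, was 1.65 without barcodes under 4000 UMIs, 1.58 with at least 15 barcodes per library and 1.61 in Gap43-negative barcodes. Without 1 library each it ranged from 1.69 to 1.88, and that of S100a5, 1.54, from 1.48 to 1.71. The correlation of both genes over receptors was 0.916 without barcodes under 4000 UMIs and 0.912 with at least 15 barcodes. Within receptors it was 0.570 with doublets kept and 0.567 with at least 5 barcodes. The share of variance between receptors was 46.4% for S100a5 at 2000 UMIs per cell, and for Pcp4l1 67.4% there, 67.5% with the gates at 0.5 times their level and 65.9% with doublets kept.

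The number of genes called between the sexes in mature neurons was 150 by DESeq2 and 7 with doublets kept, and 0 to 2 without 1 library. In transitional neurons it was 50 by DESeq2, 3 with the gates at 0.5 times their level and 28 with doublets kept, and 0 to 42 without 1 library. For sex by stage it was 15 without a filter, 40 by DESeq2, 9 with gates at double the level, 0 with gates at 0.5 times their level or with doublets kept, and 2 to 48 without 1 library. For receptor by sex it was 458 without a filter and 4 to 8 without 1 library. The sex by stage value of S100a5 was 0.19 with the gates at 0.5 times their level and ran from -0.185 to 0.0563 without 1 library. That of Pcp4l1 was 0.17 with those gates and 0.035 with doublets kept, and ran from -0.0788 to 0.0235 without 1 library. Leaving out 1 library leaves its sex with 1, which is then assumed to vary like the libraries of the other sex.

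With the replicate number as a block, 0 genes were called in mature and 0 in transitional neurons, and 1 for sex by stage; the receptor by sex calls of S100a5 (adjusted p 2.11e-05) and Pcp4l1 (0.00181, both edgeR) were kept. Same-numbered libraries had correlated deviations of -0.051 in mature and -0.187 in transitional neurons, and nothing in the labels ties the numbers to a shared batch. A crossed pairing in transitional neurons, added after the data were seen, called 50 genes. DESeq2 and the minimum of 5 barcodes were not run for receptor by sex.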

Other observations

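The rule for receptors drew a line at 10 neurons in the smallest library. The 8 receptors just inside it, with 10 neurons there, had S100a5 levels of 2723 to 32315 CPM (median 12525) when UMIs were summed over the libraries, not averaged over them as elsewhere, and the 6 just outside, with 9 neurons, had 590 to 24225 CPM (median 8545) by the same sum.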
